A study of Rattus norvegicus with 6 samples.

Results

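Serine, glycine and one-carbon synthesis in the retina was followed through 10 genes: Phgdh, Psat1, Psph, Shmt1, Shmt2, Mthfd1, Mthfd1l, Mthfd2, Aldh1l1 and Aldh1l2. They were chosen by gene symbol from 28358 genes in the deposited tables, and all 10 were found. The 10 were put together with results of this same comparison already known, so their fold changes and adjusted p-values describe them and are no separate evidence for the pathway. The tissue was neuroretina from males of the Goto-Kakizaki (GK) strain, an inbred rat that becomes diabetic (type 2) without obesity, 14 months old. A single intravitreal injection had delivered 5 µL of PLGA microspheres, which degrade slowly in the eye, 2 months before dissection. In 3 samples (spironolactone replicates 1 to 3) the microspheres held 6.2 µg of spironolactone, a mineralocorticoid receptor antagonist, and in 3 samples (non-loaded replicates 1 to 3) they held no drug. Both groups were diabetic GK rats that had been injected, and no non-diabetic or uninjected retina was analysed here. Whether a sample stands for 1 animal is not stated in the labels, so the spread behind the p-values may be partly technical.

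These enzymes form 1 connected route. Phgdh, Psat1 and Psph encode the consecutive enzymes that turn the glycolytic intermediate 3-phosphoglycerate into serine. Serine hydroxymethyltransferase (Shmt1 in the cytosol, Shmt2 in mitochondria) splits serine into glycine and a carbon unit carried on folate, and the Mthfd enzymes interconvert the folate-bound units and release formate for purine and methionine synthesis. Mthfd2 and Mthfd1l work in mitochondria and Mthfd1 in the cytosol. Aldh1l1 and Aldh1l2 oxidise 10-formyl-folate to carbon dioxide in the cytosol and in mitochondria. In the retina serine synthesis is placed mainly in Müller glia, and several of these genes are known targets of the transcription factor ATF4, which is active when amino acids are short.

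The promoters of the genes on which the results turn are shown so that the members that rose can be set beside the first enzyme of the route, which did not. Each is the 250 bases before the annotated start, 5′ to 3′ on the gene's strand, from RefSeq on the GRCr8 build, which is not the rn6 build of the count tables. Mthfd2 lies at chr4:117380351-117380600, Shmt2 at chr7:65249568-65249817 and Phgdh at chr2:188624790-188625039, all 3 on the minus strand. Capitals mark the letters CCAAT on either strand, the core that the factor NF-Y binds, which was added to the search after the sequences had been read.
Mthfd2: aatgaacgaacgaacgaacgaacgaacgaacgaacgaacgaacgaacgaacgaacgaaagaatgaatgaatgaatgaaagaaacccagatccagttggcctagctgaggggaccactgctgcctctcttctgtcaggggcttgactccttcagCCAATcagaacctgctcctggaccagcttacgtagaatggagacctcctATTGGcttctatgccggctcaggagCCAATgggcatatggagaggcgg
Shmt2: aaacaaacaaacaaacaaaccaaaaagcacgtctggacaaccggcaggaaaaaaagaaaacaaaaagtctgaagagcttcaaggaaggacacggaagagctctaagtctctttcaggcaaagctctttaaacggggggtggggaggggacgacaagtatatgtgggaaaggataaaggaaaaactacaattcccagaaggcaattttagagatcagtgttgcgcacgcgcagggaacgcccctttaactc
Phgdh: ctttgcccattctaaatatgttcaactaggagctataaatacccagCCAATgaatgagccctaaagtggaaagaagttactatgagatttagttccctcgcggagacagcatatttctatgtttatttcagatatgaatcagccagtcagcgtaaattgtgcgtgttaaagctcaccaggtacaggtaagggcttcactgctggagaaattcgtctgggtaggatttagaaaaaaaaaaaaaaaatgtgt
Mthfd2 held CCAAT 3 times, at 97, 48 and 23 bases before the start, counted from the match's first base on the gene's strand. Phgdh held it once, 204 bases before the start, and Shmt2 did not hold it. Of 33469 promoters of this length, 34.0% held CCAAT at least once and 2.52% held it 3 times or more. A promoter was found for 8 of the 10 members (those of Mthfd1 and Aldh1l2 were not matched), and 5 of the 8 held CCAAT. Psat1 and Aldh1l1, neither of them called, held it 2 times each. Whether the number of copies goes with a change in level was not tested. The core of the amino acid response element that ATF4 binds with C/EBP partners is TGATGNAA. On either strand it was in 0 of the 8 windows and in 3.4% of all promoters. At so low a share, 0 of 8 is near the background and does not show that the members lack the element. The E-box CACGTG was in 1 of the 8, Shmt1, and in 5.59% of all. A match is a run of letters and not a binding site, and these windows do not cover bases after the start, introns or distant elements.

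Libraries held between 9996198 and 12589466 expected counts, and 13242 genes passed the filter on low counts. Among them 348 genes (2.63%) had an adjusted p under 0.05 in edgeR's quasi-likelihood test, 247 higher (1.87%) and 101 lower (0.763%) with spironolactone, a split that became 82 higher and 18 lower on log2(TPM + 1) with limma. Rod markers fixed as a check of the tissue (9 of 10 names matched) summed to between 53600 and 65500 TPM (transcript abundance scaled to gene length and library total) in the non-loaded and between 42900 and 48000 in the spironolactone libraries, and 4 of the 9 were called lower. The 12 Müller glia markers summed to between 6880 and 7600 TPM against between 7160 and 7280, and 0 were called in edgeR, with 0 at an unadjusted p under 0.05. Pigment epithelium markers ranged from 198 to 237 against 81.4 to 226 TPM. The astrocyte markers, of which 3 of 4 were tested and 1 (Gfap) was called lower, summed to between 252 and 273 against between 226 and 242 TPM, ranges that do not overlap. The 5 microglia markers ranged from 48.4 to 69.2 against 47.8 to 57 TPM. The part of these differences in the results on the enzymes was not tested. In a bulk sample, fewer cells of a type and less RNA per cell cannot be told apart.

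Of the 10 members, 8 passed the filter and were tested. Only RNA was analysed here, not protein or enzyme activity. Shmt2 and Mthfd2 encode the mitochondrial enzymes that take a carbon unit from serine and oxidise it on folate. Both were called higher with spironolactone, Mthfd2 with a call that several alternatives below did not keep, and 0 members were called lower. That is 2 of 8 called higher beside 1.87% of all tested genes, a count from which nothing is read because the same comparison informed the choice of members. The median log2 fold change of the 8 was 0.17, with 5 above and 3 below zero, beside 0 for all tested genes. Values below are CPM (counts made comparable between libraries with TMM factors) unless TPM is named.

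**Figure D1:**
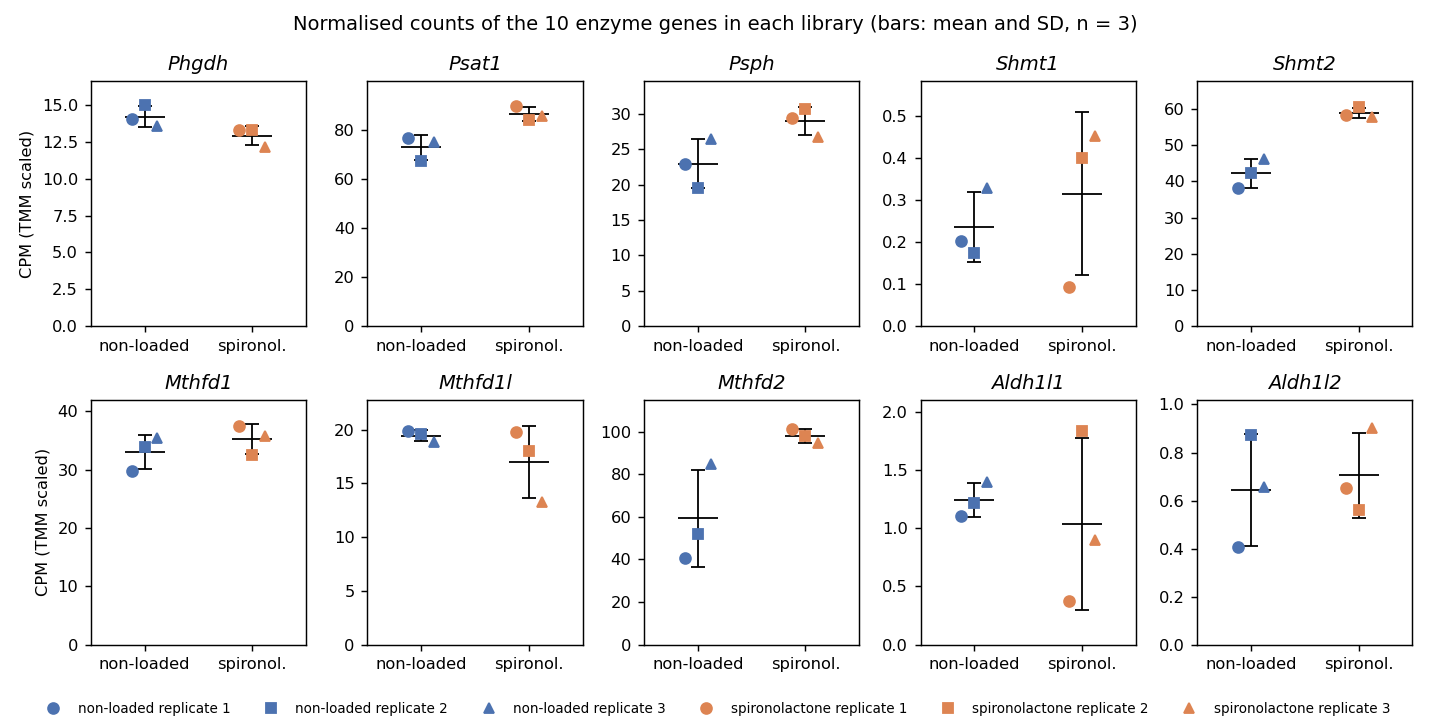
Each panel plots 1 gene, with the CPM of each library on an axis that starts at 0, blue for non-loaded and orange for spironolactone, and black bars for the mean and SD of 3 libraries. Shmt2 and Mthfd2 sit higher in each spironolactone library than in any non-loaded one, while non-loaded replicate 3 stands at 84.9 CPM for Mthfd2, well above its group's other libraries.

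At the first step of serine synthesis, Phgdh, the dehydrogenase that commits 3-phosphoglycerate to the route, measured 14.1, 15 and 13.6 CPM in the non-loaded and 13.3, 13.3 and 12.2 CPM in the spironolactone libraries. Each spironolactone library was below the lowest non-loaded one, by a small margin. The group means were 14.2 ± 0.729 and 12.9 ± 0.633 CPM (SD, n = 3 per group). The log2 fold change was −0.14 ± 0.13 (SE; edgeR, adjusted p = 0.657), with a 95% interval from −0.40 to 0.13. A rise of Phgdh beyond 1.09-fold therefore lies outside the interval.

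Psat1, the aminotransferase of the second step, measured 76.7, 67.2 and 75 CPM in the non-loaded and 89.7, 83.9 and 85.6 CPM in the spironolactone libraries. The groups did not overlap. Its log2 fold change was 0.24 ± 0.07 with an interval from 0.10 to 0.39, and it did not pass over all genes (edgeR, adjusted p = 0.0669). It passed with robust shrinkage (0.0482) and with no filter on low counts (0.0316), while its adjusted p lay between 0.0608 and 1 under the other alternatives.

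Psph, the phosphatase that releases serine in the last step, measured 22.9, 19.6 and 26.5 CPM in the non-loaded and 29.4, 30.7 and 26.8 CPM in the spironolactone libraries. The groups did not overlap, but non-loaded replicate 3 and spironolactone replicate 3 were almost level. The log2 fold change was 0.33 ± 0.11 with an interval from 0.10 to 0.57, and it did not pass (edgeR, adjusted p = 0.137). Groups that did not overlap in the higher direction occurred in 11.4% of tested genes and in the lower direction in 9.48%, or 20.9% in all. Among the members Psat1, Psph, Shmt2 and Mthfd2 were apart in the higher direction and Phgdh in the lower one.

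For the conversion of serine to glycine, the mitochondrial Shmt2 measured 38.2, 42.3 and 46.3 CPM in the non-loaded and 58.3, 60.5 and 57.9 CPM in the spironolactone libraries. The spironolactone libraries were close to each other, and the lowest of them was well above the highest non-loaded library. Shmt2 rose from 42.3 ± 4.03 to 58.9 ± 1.39 CPM, a log2 fold change of 0.48 ± 0.08 (edgeR, adjusted p = 0.0035), or 1.39-fold with an interval from 1.23 to 1.57. By p it stood at place 81 of all tested genes. Its fold change kept its direction in every alternative run, and its call was lost only when the sample title's number entered as a covariate (0.22 ± 0.26, edgeR, adjusted p = 1). That number is 2, 3 and 4 in the non-loaded and 8, 10 and 11 in the spironolactone samples, and it follows the group so closely (r = 0.953) that number and group cannot be told apart.

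The cytosolic Shmt1 was close to the detection limit. Its expected counts were 2, 2 and 4 in the non-loaded and 1, 5 and 5 in the spironolactone libraries, so it did not pass the filter. Fitted with no filter its log2 fold change had an interval from −1.46 to 2.28. Changes of Shmt1 in either direction within that interval are compatible with these few counts, which do not decide whether it changed.

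Among the folate enzymes, Mthfd2, the mitochondrial methylene-folate dehydrogenase and cyclohydrolase, measured 40.8, 51.9 and 84.9 CPM in the non-loaded and 101.3, 97.7 and 94.5 CPM in the spironolactone libraries. The spironolactone libraries again lay close together, whereas non-loaded replicate 3 was nearer to them than to the other non-loaded libraries. Mthfd2 rose from 59.2 ± 22.9 to 97.9 ± 3.44 CPM, a log2 fold change of 0.71 ± 0.16 (edgeR, adjusted p = 0.0243), or 1.64-fold with an interval from 1.30 to 2.08. It was the largest fold among the tested members. The call was lost with DESeq2 (adjusted p = 0.212), with edgeR's robust shrinkage (0.37) and with limma on log2(TPM + 1) (0.141) or log2(TPM + 0.1) (0.141). It was also lost without non-loaded replicate 1 (edgeR, adjusted p = 0.0989), non-loaded replicate 2 (0.11), and without replicate 2 (0.138) or replicate 3 (0.0649) of the spironolactone group. Without non-loaded replicate 3 the log2 fold change was 1.07 ± 0.10 (edgeR, adjusted p = 3.47e-06). With the title number as a covariate it was −0.06 ± 0.48.

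**Figure D2:**
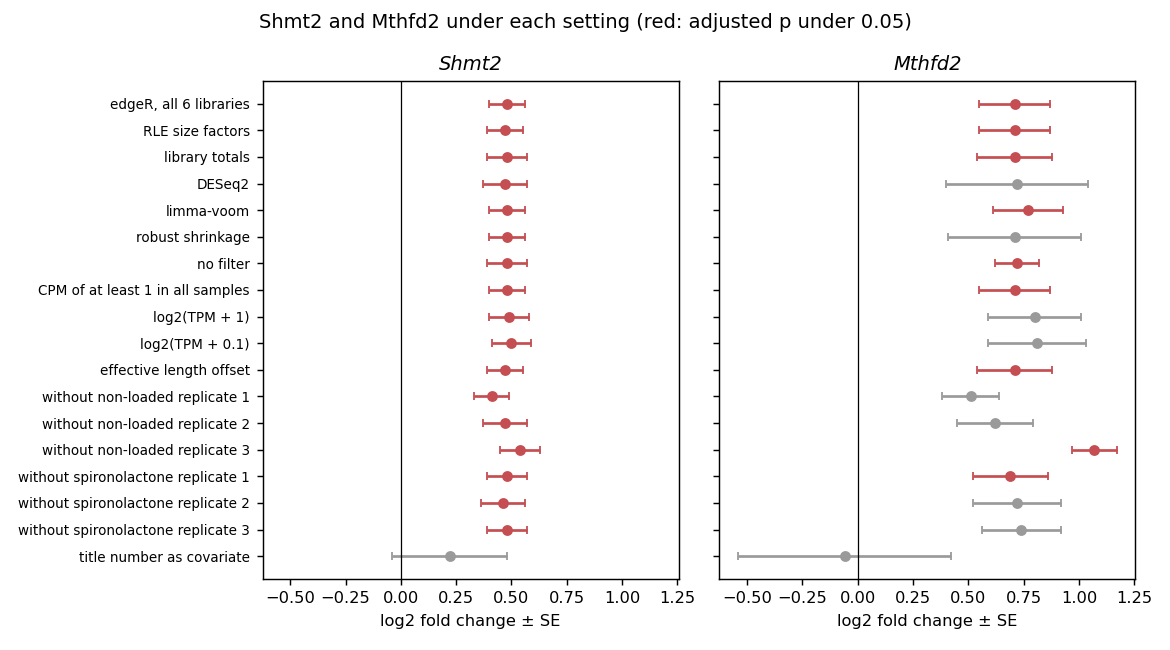
Points give the log2 fold change of Shmt2 (left) and Mthfd2 (right) under each setting on the vertical axis, with bars of 1 SE, and red marks an adjusted p under 0.05. Shmt2 stays red in each row except the covariate row, while Mthfd2 turns grey in 9 rows and moves to 1.07 without non-loaded replicate 3.

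Mthfd1l, the mitochondrial formyl-folate ligase that releases formate downstream of Mthfd2, measured 19.9, 19.6 and 18.9 CPM in the non-loaded and 19.8, 18 and 13.3 CPM in the spironolactone libraries. The groups overlapped, and spironolactone replicate 3 was the lowest. Its log2 fold change was −0.19 ± 0.13 with an interval from −0.47 to 0.09 (edgeR, adjusted p = 0.524). Mthfd1, the cytosolic enzyme that carries all 3 activities on a single protein, measured 29.8, 33.9 and 35.4 CPM in the non-loaded and 37.5, 32.5 and 35.8 CPM in the spironolactone libraries. These values overlapped too, with a log2 fold change of 0.09 ± 0.09 and an interval from −0.11 to 0.29 (edgeR, adjusted p = 0.713).

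The formyl-folate dehydrogenases were scarce. Aldh1l1, the cytosolic form and a common marker of astrocytes, had 11, 14 and 17 expected counts in the non-loaded and 4, 23 and 10 in the spironolactone libraries. The lowest and the highest value both came from spironolactone libraries. Its log2 fold change of −0.23 ± 0.47 had an interval from −1.22 to 0.76, or 0.43-fold to 1.69-fold, and without spironolactone replicate 1 the value was 0.15. Aldh1l2, the mitochondrial form and a known ATF4 target, had 4, 10 and 8 expected counts in the non-loaded and 7, 7 and 10 in the spironolactone libraries and did not pass the filter. Fitted with no filter its interval ran from −1.15 to 1.36 on the log2 scale.

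**Figure D3:**
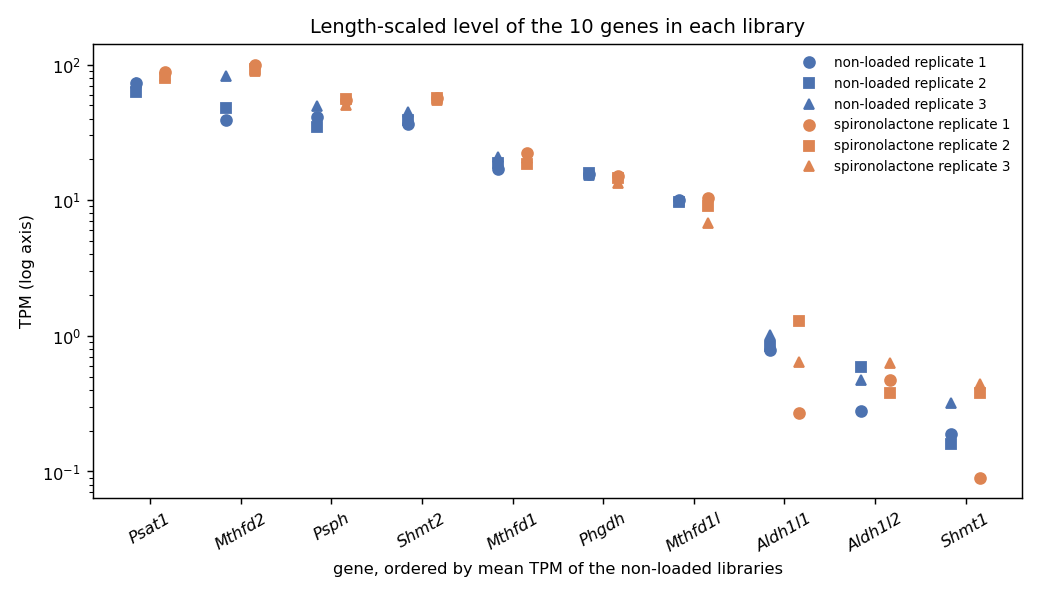
TPM of each gene in each library on a log axis, with genes ordered by the mean of the non-loaded libraries, blue for non-loaded and orange for spironolactone. The upper 7 genes, led by Psat1 and Mthfd2, lie at 6.75 TPM or more, and the lowest values, near or under 1 TPM, belong to Aldh1l1, Aldh1l2 and Shmt1.

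Levels can be compared between genes only per length, in TPM. In the non-loaded libraries the order was Psat1 (69.8 ± 6.31 TPM, SD, n = 3), Mthfd2 (56.5 ± 23.1), Psph (41.7 ± 7.35), Shmt2 (39.9 ± 4.4), Mthfd1 (18.8 ± 1.83), Phgdh (15.6 ± 0.392), Mthfd1l (9.84 ± 0.229), Aldh1l1 (0.883 ± 0.121), Aldh1l2 (0.447 ± 0.156) and Shmt1 (0.223 ± 0.085). Psat1 and Mthfd2, Mthfd2 and Psph, and Psph and Shmt2 overlapped as neighbours in this order, and Mthfd2 alone ran from 38.8 to 82.6 TPM. Aldh1l2 and Shmt1 overlapped as well, while the other neighbours did not. In the spironolactone libraries Mthfd2 (94.2 ± 5.09 TPM) stood first, above Psat1 (83.6 ± 4.8), with a range of 90.3 to 99.9 against 79.5 to 88.9. Shmt2 (56.2 ± 1.14) and Psph (53.5 ± 3.04) followed and overlapped. Phgdh, the entry enzyme, was at a lower TPM than Psat1, Psph and Shmt2, the enzymes of the following steps, in every library. Summed over the 10 genes, the level was 234, 230 and 298 TPM in the non-loaded and 350, 328 and 320 TPM in the spironolactone libraries. The sums did not overlap, and non-loaded replicate 3 was again the nearest to the other group. Psat1, Mthfd2, Psph and Shmt2 weigh most in the sum, and each was apart in the higher direction. The gap restates those genes and does not speak for the route as a whole. Phgdh and Mthfd1l had lower mean TPM with spironolactone (14.4 and 8.73) than without.

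A ratio of genes within a library does not depend on how that library was scaled. The pairs named here first were chosen after the values were seen and are given with no test. The TPM of Mthfd2 over that of Mthfd1l was 3.85, 4.98 and 8.44 in the non-loaded and 9.64, 10.2 and 13.4 in the spironolactone libraries, with no overlap. The ratio of Psat1 to Phgdh was 4.74, 3.9 and 4.8 against 5.88, 5.47 and 6.1, and that of Psph to Phgdh was 2.67, 2.15 and 3.22 against 3.65, 3.8 and 3.71. Both were higher in each spironolactone library than in any non-loaded one. This had to be so, because Psat1 and Psph were already apart in the higher direction and Phgdh in the lower one. These ratios restate the single genes and add no result of their own. Shmt2 over Mthfd1l was 3.58, 4.03 and 4.57 against 5.51, 6.25 and 8.14. For the mitochondrial-to-cytosolic pairs, Mthfd1l over Mthfd1 overlapped between the groups (0.593, 0.513 and 0.474 against 0.468, 0.493 and 0.33). The ratios of Shmt2 to Shmt1 and of Aldh1l2 to Aldh1l1 also overlapped, and both rest on a few counts of the scarcer gene.

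**Figure D4:**
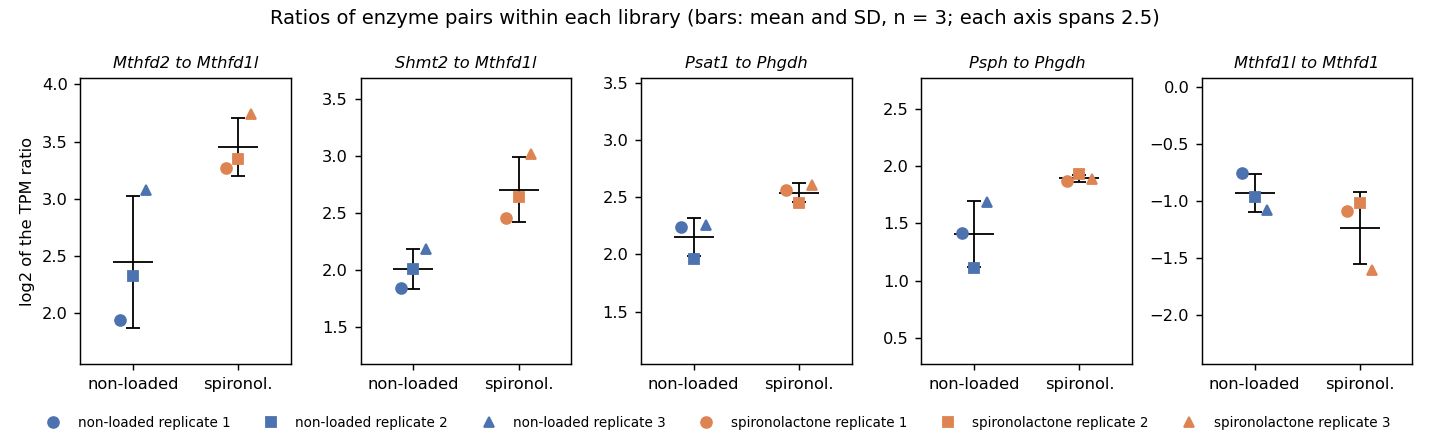
Log2 of the TPM ratio for 5 pairs of genes in each library, blue for non-loaded and orange for spironolactone, with the mean and SD of 3 libraries in black and the same span on each axis. The groups are apart in the first 4 panels and overlap for Mthfd1l to Mthfd1. For the ratios over Phgdh this follows from the levels of the single genes.

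Variation of the members within the groups was compared pair by pair. For members with few counts, such as Aldh1l1 with 4 to 23, counting noise can hold a correlation near 0. The values therefore do not decide whether the members vary together. After subtracting each group's mean, 14 of the 28 pairs of tested members had a positive Pearson correlation of log2 CPM over the 6 libraries, and the median was 0.01. Shmt2 and Mthfd2 had the highest value (0.95), followed by Phgdh and Mthfd1l (0.72), Mthfd1 and Mthfd2 (0.70) and Psat1 and Psph (0.62). Phgdh and Psat1 had the lowest (−0.51). These values share the libraries and their scaling. They rest on 6 points from which 2 group means were removed, so fewer than 6 are independent. Shmt2 and Mthfd2 varied more among the non-loaded libraries (SD 4.03 and 22.9 CPM) than among the spironolactone ones (1.39 and 3.44 CPM). Their 0.95 therefore rests mainly on the non-loaded libraries, where both genes rose from replicate 1 to replicate 3. The RSEM gene length, which follows the mix of transcript isoforms and played no part in the choice of members, was constant for the 7 members with 1 annotated transcript. For Psph it was between 1155.8 and 1160 bases in the non-loaded and between 1135.07 and 1160 bases in the spironolactone libraries, and for Psat1 between 2050 and 2054.21 bases over all 6. For Aldh1l1 it was 2709 bases in each library but spironolactone replicate 2, with 2724. The ranges of the 2 groups overlapped for these 3 genes.

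Of the tested genes with a symbol, 12504 were compared with Shmt2, the member with the smallest p, over the 6 libraries. The closest profiles by Pearson correlation of log2 CPM belonged to Srsf3 (r = 0.997), Cebpb (0.996), Pcbp2 (0.996), Golga5 (0.995) and Stk40 (0.994). Among them only Cebpb was called (log2 fold change 1.15 ± 0.14, edgeR, adjusted p = 0.000186), and the others changed by between 0.09 and 0.28 with adjusted p above the threshold.

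The rest of the pathway was described with 44 other genes listed by function, of which Cth and Pfas were not matched and 35 passed the filter. In edgeR 0 of the 35 were called and 3 had an unadjusted p under 0.05, and DESeq2 and limma-voom also called 0. Over all 13242 tested genes 2.63% were called and 2098 had an unadjusted p under 0.05, so a count of 0 among 35 is near the background. Their median log2 fold change was −0.06, with 13 above and 22 below zero and a range from −0.42 to 0.31. The members' own range was −0.23 to 0.71.

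**Figure D5:**
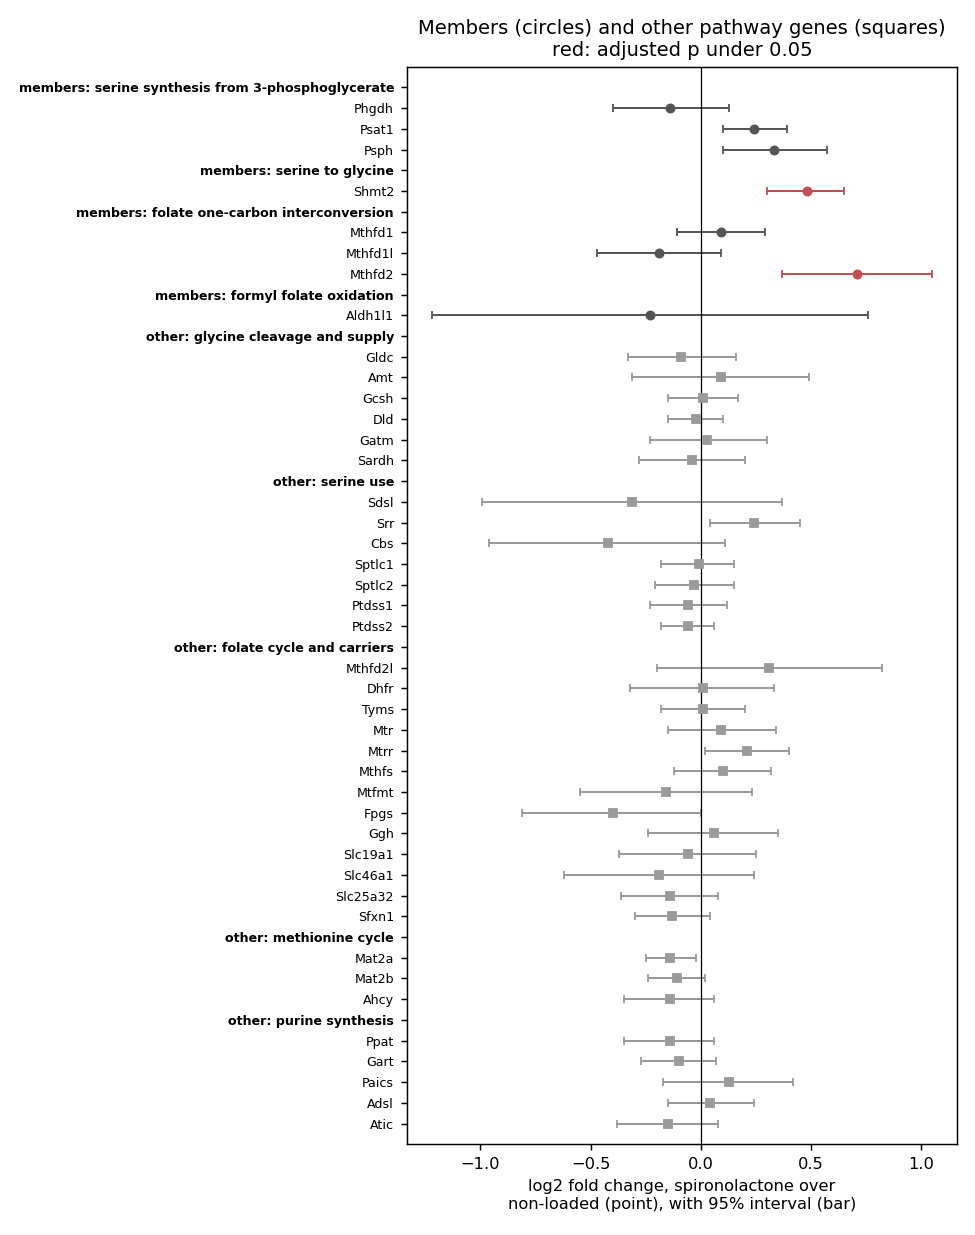
Log2 fold change (horizontal axis, spironolactone over non-loaded) with its 95% interval for the 8 tested members (circles) and 34 of the other pathway genes (squares), grouped by role, with red for an adjusted p under 0.05. Shmt2 and Mthfd2 are red, and the squares lie around 0 between −0.42 and 0.31.

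The glycine cleavage system, which breaks glycine down in mitochondria to yield the same folate-bound carbon unit as Shmt2, had a narrow range. Its decarboxylase gene Gldc measured 31.9 ± 5.49 and 30 ± 2.86 CPM (log2 fold change −0.09 ± 0.12, interval −0.33 to 0.16), and Gcsh, the carrier protein, 44.7 ± 1.85 and 44.9 ± 0.243 CPM (0.01 ± 0.08). Among genes that use serine, Srr, the racemase that makes D-serine for NMDA receptors, measured 35 ± 2.89 and 41.4 ± 4.34 CPM (0.24 ± 0.10, edgeR, adjusted p = 0.218). Cbs, which condenses serine with homocysteine, measured 3.66 ± 0.358 and 2.72 ± 0.413 CPM (−0.42 ± 0.25, interval −0.96 to 0.11). Sptlc1 and Sptlc2, which join serine to palmitate in sphingolipid synthesis, had log2 fold changes of −0.01 and −0.03.

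In the folate cycle, Mtrr, which reactivates methionine synthase, measured 37.2 ± 1.54 and 43.1 ± 4.09 CPM (0.21 ± 0.09, edgeR, adjusted p = 0.264). Fpgs, which adds the glutamate tail that keeps folate in the cell, measured 8.87 ± 1.79 and 6.68 ± 1.17 CPM (−0.40 ± 0.19, edgeR, adjusted p = 0.32). Mthfd2l, the paralogue of Mthfd2 in mitochondria, measured 3.61 ± 0.572 and 4.45 ± 0.935 CPM, with an interval from −0.20 to 0.82. None of these passed the test.

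The 3 tested genes of the methionine cycle all had values below zero. Mat2a, the enzyme that makes the methyl donor S-adenosylmethionine, measured 236.4 ± 2.23 and 214.9 ± 5.23 CPM, and its groups did not overlap (−0.14 ± 0.05, edgeR, adjusted p = 0.218). Mat2b (−0.11 ± 0.06) and Ahcy (−0.14 ± 0.10) did not pass either. Of the 35 tested other pathway genes, 6 had groups apart in the lower direction and 1 in the higher one. The shares over all tested genes were 9.48% and 11.4%, and the difference from them was not tested. Of the genes of purine synthesis, a pathway that consumes formyl units at some of its steps, 5 were tested. They ranged from −0.15 (Atic) to 0.13 (Paics).

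Transcription factors known to act on serine synthesis or in the response to amino acid shortage were read in the same fit. Atf4 itself measured 798.6 ± 20.1 and 886.5 ± 37.6 CPM (0.15 ± 0.06, edgeR, adjusted p = 0.187). Of the 8 regulator genes 6 rose: Atf3 (log2 fold change 1.21 ± 0.16), Cebpb (1.15 ± 0.14), Atf5 (0.79 ± 0.10), Nfe2l2 (0.60 ± 0.12), Cebpg (0.49 ± 0.07) and Ddit3 (0.40 ± 0.08), with edgeR adjusted p between 0.00015 and 0.0109. The list was drawn up with earlier results of these data known, so this count, beside 1.87% of all tested genes called higher, is a description. Myc, the remaining one, measured 1.49 ± 0.307 and 1.72 ± 0.235 CPM and was not called. Atf3, a stress-induced factor, measured 41.8, 46.8 and 83.4 CPM in the non-loaded and 120.6, 145.7 and 135.1 CPM in the spironolactone libraries, so non-loaded replicate 3 was the highest of its group here as for Mthfd2. With the group means removed, the correlation with Mthfd2 over the 6 libraries was 0.94 for Atf3, 0.88 for Nfe2l2, 0.86 for Ddit3, 0.85 for Cebpb, 0.82 for Cebpg, 0.37 for Atf5, 0.27 for Atf4 and −0.37 for Myc. The closest profiles to Mthfd2 among 12504 tested genes belonged to Gtf2h4, Dhrs11, Nfil3, Fuz and Lonp2. None of them was called, and each had 0.98 with the group means removed. These genes were picked for their correlation with Mthfd2, so high values in them follow from the choice. How often genes outside the regulators reach such values was not counted, so nothing is read from the regulators' values. Mthfd2 itself varied mainly among the non-loaded libraries (SD 22.9 against 3.44 CPM). Atf3 did not pass with robust shrinkage (adjusted p = 0.176). Ddit3 and Nfe2l2 did not pass on either TPM scale or without replicate 1 or 2 of the non-loaded or replicate 2 of the spironolactone group (adjusted p between 0.0507 and 0.112). With the title number as a covariate 0 of the 8 passed.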

How the data were processed

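RNA from 6 neuroretina samples was sequenced after stranded mRNA library preparation, per the labels' protocols. The submitters' processing notes name RSEM 1.2.28, STAR 2.5.3a, Trimmomatic, FastQC and the rn6 build, with no roles. Neither the annotation version nor the strand setting is given in the sources used here. The authors deposited RSEM tables with expected counts per gene, unnormalised, per the file headers; the counts of the members were whole numbers. TPM, also deposited, served for levels, ratios and an alternative; deposited FPKM were not used. Gene and effective lengths in bases are other columns the authors deposited.

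Expected counts were rounded, filtered with filterByExpr by group, scaled with TMM factors and tested two-sided with edgeR 4.0.16 (glmQLFit and glmQLFTest, R 4.3.3). P-values of the 13242 tested genes were adjusted together by Benjamini-Hochberg, and 0.05 was the limit for a call. The standard error is the log2 fold change over the square root of F. The treatment label gave the groups. Members and lists were chosen with earlier results of these data known. Named were the 10 members, up to 3 genes of each pathway group by smallest p (of which a part is given) and the regulators. Genes needed to describe a group were also named (Gcsh, Sptlc1, Sptlc2, Mthfd2l and Paics, outside the rule). So were the 5 profiles closest to the member with the smallest p and, outside the rule, the 5 closest to Mthfd2. A pathway gene is not reported here, though counts of genes include it. On simulated counts (3 draws, 200 genes changed, 13146 genes in the first draw) the test recovered 46.7% of 1.25-fold, 90% of 1.5-fold and 99.3% of 2-fold changes, with 8.03% of calls false. The changed genes were drawn from those with a log2 mean CPM above 3. These rates therefore do not cover scarcer genes such as Aldh1l1. Alternatives were RLE factors, library totals, DESeq2 1.42.0, limma 3.58.1 (voom, and on log2(TPM + 1) or log2(TPM + 0.1)), robust shrinkage, other filters, effective length as an offset, each library left out and the title number as a covariate.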

Additional observations from a re-analysis of the deposited data

How the results depend on the processing

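Counts of called genes moved with the unit, the filter and the libraries. The 247 higher and 101 lower genes became 439 and 163 with no filter, 82 and 18 on log2(TPM + 1), 79 and 16 on log2(TPM + 0.1), and 0 and 0 with the title number as a covariate (562 at an unadjusted p under 0.05, edgeR). Leaving out 1 library gave 81 to 421 higher and 30 to 200 lower genes. The members called higher were 1 with DESeq2 and 1 on either TPM scale, 1 to 2 with a library left out, and 0 with the title number; 0 were called lower in any setting. The 6 regulators called became 0 with the title number. With the title number the log2 fold change turned to 0.07 for Phgdh, 0.64 for Mthfd1l, −0.06 for Mthfd2, −0.05 for Amt, 0.17 for Dld, −0.33 for Srr, −0.06 for Mtrr, 0.93 for Fpgs, 0.65 for Ahcy, 0.12 for Ppat, 0.34 for Atic, 0.18 for Gart, 0 for Atf4 and −0.25 for Nfe2l2, each with adjusted p = 1 (edgeR). With a library left out the value ran from −0.95 to 0.15 for Aldh1l1, −0.21 to 0.05 for Gldc, −0.04 to 0.23 for Amt and −0.07 to 0.01 for Dld. The cause of these shifts was not tested. Over 30 named genes and their alternatives, 464 of 509 values kept their direction and side of the threshold. Most of these genes were not called, so for them keeping the side meant staying uncalled. A called gene lost its call with its direction kept in 25 values. An uncalled gene gained a call in 2, and the direction turned in 18. The pooled count is therefore no measure of how stable the calls were. The difference in log2 ratio of Shmt2 to Shmt1 ran from −0.45 to 0.72 with a library left out. Depth limits Shmt1, Aldh1l1 and Aldh1l2. No paired analysis was possible because the labels give no replicate numbers shared by the groups.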
